A study of Mus musculus with 2 samples.

Results

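The genes described here are 9 genes of forebrain GABAergic cells: the homeobox genes Dlx1, Dlx2, Dlx5 and Dlx6, the zinc-finger gene Sp9, the long non-coding RNA Dlx6os1, both glutamate decarboxylase genes Gad1 and Gad2, and the vesicular GABA transporter gene Slc32a1. They were taken by symbol from the 32285 genes of the count tables, and all 9 were found and passed the filter on low counts in each comparison. Their unique molecular identifiers (UMIs, each standing for 1 captured transcript) were summed per cell class and library, chiefly to set dividing against postmitotic GABAergic cells. The libraries came from the dissected, papain-dissociated dorsal telencephalon of mouse embryos at embryonic day 14.5, and the labels give the tissue as brain hemispheres. Both carry the genotype label WT and come from control animals of the EomesDot line. No other group, allele or agent is named, and the labels do not say what the line carries or whether it is the C57BL/6J background given in the study's methods. Replicate 2 and replicate 4 take their names from the library titles. Nothing beyond these titles says that they came from separate embryos or litters, so p-values measure the spread between these 2 libraries. For each gene that spread was estimated over all classes of at least 5 cells in each library, and not only over the 2 classes compared.

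DLX proteins are transcription factors that specify GABAergic neurons in the ganglionic eminences of the ventral telencephalon, from which interneurons migrate tangentially into the cortex. Dlx1 and Dlx2 are known as the earlier-acting genes of progenitors, and Dlx5 and Dlx6 as later ones, whereas SP9 acts beside them in interneurons and striatal neurons. GAD67 (Gad1) and GAD65 (Gad2) make GABA from glutamate, and VGAT (Slc32a1) loads it into synaptic vesicles. The cortex's own radial glial cells (RGCs), intermediate progenitors (IPCs) and excitatory neurons belong to the other, glutamatergic lineage.

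The tables held 1712 and 2589 barcodes with 40267872 and 49422007 UMIs in replicates 2 and 4. Of these, 1197 and 1956 cells were kept, with a median of 30810 and 22948 UMIs per cell, and 3 barcodes occurred in both libraries. GABAergic-like cells, named from interneuron and striatal marker genes without use of the 9 genes, numbered 87 and 236, or 323 of 3153 cells. Their median depth was 21698 UMIs in replicate 2 and 12034 in replicate 4. Dividing GABAergic-like cells were the sub-clusters in which at least 50% of the 29 cell cycle genes were raised. They numbered 7 in replicate 2, or 8.05% of the GABAergic-like cells (95% exact binomial interval 3.30 to 15.9%), and 42 in replicate 4, or 17.8% (13.1 to 23.3%). The postmitotic cells numbered 80 and 194. They comprised medial ganglionic eminence (MGE) interneuron-like cells (58 and 91), caudal or lateral ganglionic eminence (CGE or LGE) interneuron-like cells (20 and 34), striatal projection neuron-like cells (1 and 34) and cells of a cluster led by Six3 that no marker list named (1 and 35). The latter 2 kinds came almost wholly from replicate 4.

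Marker genes describe the dividing class. Its cell cycle genes, Mki67 and Top2a among them, also defined it, so their level there is no check of the label. Mki67 and Top2a, both made in dividing cells, had 606 and 1509 CPM (counts per 1e6 UMIs of the class) there in replicate 2 and 714 and 1497 in replicate 4. The summed level of the cell cycle genes was 12389 and 10856 CPM, against 199.7 and 229 CPM in the postmitotic GABAergic-like cells. Neurog2, the proneural gene of dorsal progenitors, had 0 UMIs in both libraries, and Eomes, the IPC marker, had 0 and 1.26 CPM. All 12 RGC markers were detected in replicate 4 and 9 of 12 in replicate 2. Their summed level was 1156 and 1324 CPM, against 283 and 402 CPM in postmitotic cells and 5760 and 5145 CPM in RGC-like cells. Of 8 IPC markers 4 and 6 were detected (662 and 586 CPM summed, against 415 and 343 CPM in RGC-like and 40.5 and 42.0 CPM in postmitotic GABAergic-like cells) and of 9 excitatory neuron markers 3 and 6 (628 and 541 CPM), and their part in the results was not tested. Of 12 MGE interneuron markers 4 and 11 were detected (14779 and 14440 CPM summed, against 44347 and 36967 CPM in postmitotic GABAergic-like cells), with Lhx6 at 0 and 2.52 CPM. Of 11 CGE or LGE interneuron markers, which share Erbb4 and Nrxn3 with the MGE list, 7 and 8 were detected (14364 and 14708 CPM, against 37002 and 33382 CPM in postmitotic GABAergic-like cells). Prox1 had 39.3 and 136 CPM beside 30.7 and 26.6 CPM in RGC-like cells. Of 15 striatal projection neuron markers 6 and 10 were detected (4315 and 4481 CPM, against 3957 and 3998 CPM in RGC-like cells). The dividing cells themselves differed between replicates 2 and 4, with Six3 at 0 and 98.3 CPM, Isl1 at 0 and 53.0 CPM, Nr2f2 at 16.8 and 178 CPM, Sp8 at 135 and 39.1 CPM and Pax6, a gene also high in RGC-like cells, at 309 and 37.8 CPM. The part of this in the results was not tested.

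Of the 9 genes, 6 lie on chromosome 2 and 3 on chromosome 6 (RefSeq annotation, mouse build GRCm38.p6, the build that the submitters name mm10). Dlx1 (chr2:71528113-71533981) and Dlx2 (chr2:71543408-71546754) are neighbours with 9426 bases between them, and Gad1 (chr2:70561303-70602014) lies 926098 bases before Dlx1. Sp9 occupies chr2:73271926-73275771, Gad2 chr2:22621015-22693877 and Slc32a1 chr2:158607260-158615747. Dlx5 (chr6:6877801-6882068) and Dlx6 (chr6:6863334-6867970) are 9830 bases apart. Dlx6os1 (chr6:6820543-6871627) spans all 4637 bases of Dlx6 and ends 6173 bases before Dlx5. Whether introns were counted is not given in the sources used here, and reads in the shared span could be split between Dlx6 and Dlx6os1 in a way the tables do not show, so values of this pair are uncertain to that extent.

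Of the 9 genes, 7 had an entry in the RefSeq promoter table of that build (Dlx5 and Dlx6 had none). The 250 bases before the start are shown for Dlx2, the gene of the 9 called higher in dividing cells (a call that several alternative analyses lost), for Sp9, and for Dlx6os1, whose first listed start lies between the Dlx6 and Dlx5 genes. The Dlx2 window is chr2:71546755-71547004, minus strand. The Sp9 window is chr2:73271676-73271925, plus strand. The Dlx6os1 window is chr6:6869534-6869783, minus strand. Capitals mark a match on either strand to TAATTA, the core recognised by many homeodomain proteins, or to GGGCGG, the GC box bound by SP-family factors (read as CCGCCC on the other strand).
Dlx2: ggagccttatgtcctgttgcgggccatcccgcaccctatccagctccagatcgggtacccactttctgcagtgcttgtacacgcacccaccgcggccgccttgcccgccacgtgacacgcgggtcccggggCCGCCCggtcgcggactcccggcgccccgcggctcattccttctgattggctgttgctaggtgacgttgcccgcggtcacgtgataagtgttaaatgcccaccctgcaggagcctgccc
Sp9: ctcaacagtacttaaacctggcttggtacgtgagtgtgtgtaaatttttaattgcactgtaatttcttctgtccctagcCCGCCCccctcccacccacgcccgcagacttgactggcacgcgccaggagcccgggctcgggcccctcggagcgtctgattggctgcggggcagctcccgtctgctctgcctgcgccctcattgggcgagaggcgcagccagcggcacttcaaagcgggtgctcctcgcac
Dlx6os1: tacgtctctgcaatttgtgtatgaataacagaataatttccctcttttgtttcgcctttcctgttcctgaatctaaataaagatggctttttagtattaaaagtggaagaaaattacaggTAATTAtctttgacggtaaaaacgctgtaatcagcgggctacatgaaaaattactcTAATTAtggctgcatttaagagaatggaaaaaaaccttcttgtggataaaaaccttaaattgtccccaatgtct
TAATTA occurred at 130 and 74 bases before the Dlx6os1 start and in 4.84% of the 32851 promoter windows of the same length. GGGCGG occurred 119 bases before the Dlx2 start and 171 bases before the Sp9 start, and in 32.7% of all windows. The Dlx2 and Sp9 windows had a GC content of 66.4% and 62.4%, and the Dlx6os1 window 33.2%, against a median of 52.4% over all windows. TATAAA (12.4% of all windows) and CAGCTG (13.001%), also sought on both strands, were not in these 3 windows. Of the other windows of the 9 genes, those of Dlx1, Gad2 and Slc32a1 held none of these 4 motifs, and that of Gad1 held GGGCGG 8 bases and TATAAA 141 bases before its start. A second listed start of Dlx6os1 had TAATTA 174 bases and TATAAA 86 and 30 bases before it. GGGCGG thus occurred in 3 of the 7 genes with a window and TAATTA in 1. These are matches of letters only, and none of the data here measured binding.

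All 9 genes were near 0 in the local excitatory lineage and were carried by the GABAergic-like cells. GABAergic-like cells held between 91.6% (Dlx5) and 99.4% (Slc32a1) of a gene's UMIs over all kept cells in replicate 2, and between 86.4% (Dlx1) and 93.2% (Dlx6) in replicate 4. In excitatory neuron-like cells (558 and 880 cells) the levels ran from 0 to 1.49 CPM in replicate 2 and from 0.31 to 10.99 CPM in replicate 4. Much of the latter sat in 1 excitatory cluster led by Tafa1 and Tafa2 (15 and 86 cells), in which Dlx6os1 had 110 CPM and Gad2 85.6 CPM in replicate 4 and every one of the genes had 0 UMIs in replicate 2. Without that cluster, replicate 4 had 0.049 (Dlx6) to 2.83 CPM (Gad2).

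Postmitotic GABAergic-like cells exceeded excitatory neuron-like cells in all 9 genes, in both libraries and without overlap, as did 32.1% of the 13151 genes tested. Gad1 had 372 and 359 CPM in postmitotic GABAergic-like cells against 0.36 and 1.97 CPM in excitatory neuron-like cells of replicates 2 and 4. Slc32a1 had 100.4 and 92.1 CPM against 0 and 0.89 CPM. Dlx5 had 107 and 103 CPM against 0.15 and 0.67 CPM, and Sp9 had 152 and 189 CPM against 0.051 and 0.85 CPM. The fitted log2 fold changes ran from 7.17 ± 1.09 (SE, Gad2) to 8.36 ± 0.70 (Sp9), with adjusted p from 2.57e-07 (Dlx5) to 0.00329 (Dlx6os1) by edgeR's quasi-likelihood test with Benjamini-Hochberg adjustment over 13151 genes. Of these genes 6.44% were called higher and 9.9% lower at an adjusted p under 0.05. All 9 remained called in each alternative analysis, but the sizes are imprecise, since Slc32a1 had 0 UMIs and Dlx2, Dlx6 and Sp9 1 UMI each in excitatory neuron-like cells of replicate 2. Without the cluster led by Tafa1 and Tafa2, the log2 fold change of Sp9 was 10.05 and that of Gad1 9.83, beside 8.15 with it.

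Dividing GABAergic-like cells were also set against RGC-like cells (243 and 428 cells), which were not restricted to dividing cells. Their summed cell cycle level was 6328 and 6613 CPM against 12389 and 10856 CPM, with Mki67 at 284 and 235 CPM, so the comparison is not matched for dividing state. All 9 genes were called higher in the dividing GABAergic-like cells, where 6.96% of all genes were called higher and 11.7% lower. With another scaling (RLE size factors) the genes called in this comparison split into 1219 higher and 1235 lower, against 915 and 1538. Dlx2 had 370.3 and 293 CPM against 0.48 and 2.21 CPM in RGC-like cells, a log2 fold change of 7.63 ± 0.63 (edgeR adjusted p = 2.80e-05). Gad2 had 623 and 600.2 CPM against 0.48 and 3.62 CPM, with 7.94 ± 1.19 (edgeR adjusted p = 0.000726). Gad1 showed the smallest of the 9 differences, 6.88 ± 0.96 (edgeR adjusted p = 0.000474), and Dlx6os1 the largest, 8.39 ± 1.56 (edgeR adjusted p = 0.00221). These fold changes rest on few UMIs in RGC-like cells of replicate 2, from 0 (Gad1) to 9 (Dlx1), so their size is imprecise.

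**Figure D1:**
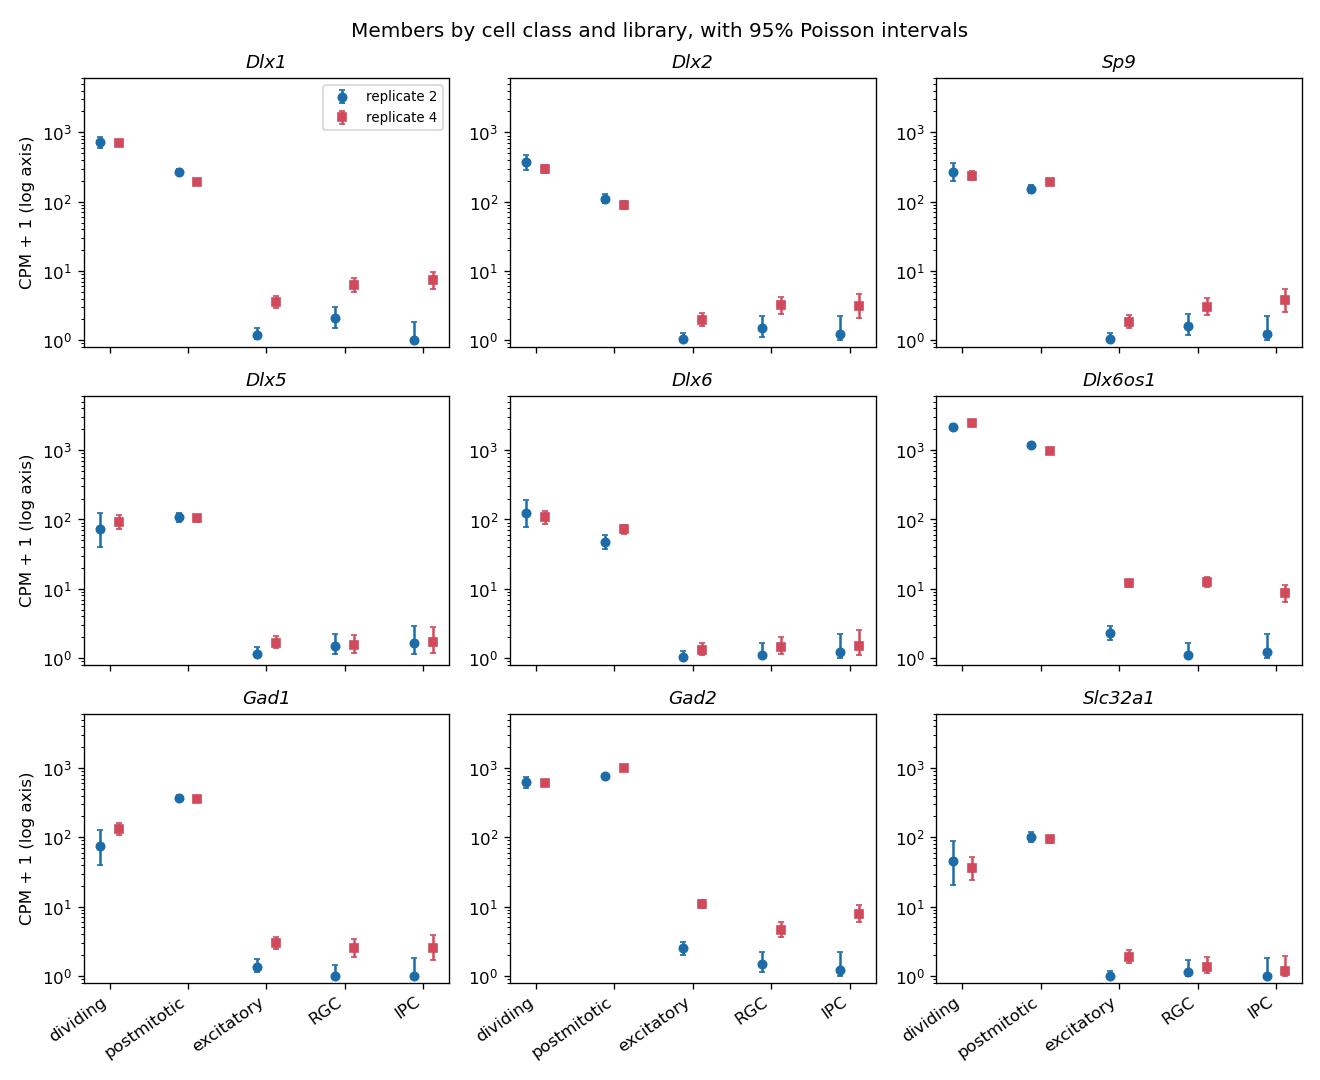
Level of each of the 9 genes (CPM + 1, log axis) in 5 cell classes, with a point per library (circles, replicate 2; squares, replicate 4) and 95% exact Poisson intervals. Dividing and postmitotic GABAergic-like cells lie far above the 3 classes of the cortex's own lineage for all 9 genes, such as 372 and 359 CPM of Gad1 in postmitotic against 0.36 and 1.97 CPM in excitatory neuron-like cells.

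Between dividing and postmitotic GABAergic-like cells, 2 of the 9 genes passed the test, in opposite directions. Dlx2 was higher in the dividing cells, and Gad1, which encodes GAD67, was lower there. The other 7 did not pass the test. For each of the 9 genes the 2 dividing values and the 2 postmitotic values did not overlap, which was also so for 58.2% of all genes tested. Over 13151 genes, 10.9% were called higher in dividing cells and 16.7% lower. The split of 1428 higher and 2200 lower genes was 1658 and 1834 with RLE size factors and 1857 and 1825 by DESeq2. A count of 1 of 9 in each direction is close to the share of all genes. CPM are per UMI total of the class and library, whereas the fitted log2 fold changes use totals scaled by TMM factors, so a fitted value can lie outside both libraries' CPM ratios (for Dlx2, 1.76 and 1.73 beside a fitted 1.36). The median of all genes tested was -0.23 on the fitted log2 scale (-0.10 with RLE size factors).

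Among the transcription factors, Dlx2 had 370.3 CPM in dividing cells of replicate 2 and 293 CPM in those of replicate 4, against 109 and 88.4 CPM in postmitotic cells. The mean was 331 ± 55.0 CPM (SD, n = 2 libraries) in dividing cells and 98.8 ± 14.7 CPM in postmitotic cells, and both dividing values exceeded both postmitotic ones. The log2 fold change was 1.36 ± 0.47 (edgeR adjusted p = 0.0494), just inside the threshold of 0.05. The call was lost in 4 of 13 alternative analyses, among them the DESeq2 Wald test (1.54, adjusted p = 0.349) and the comparison with interneuron-like cells alone (1.19, edgeR adjusted p = 0.0765).

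Dlx1, its neighbour, had 713 and 699 CPM in dividing cells against 269 and 194 CPM in postmitotic cells of replicates 2 and 4. The 2 dividing values lay close together, 706 ± 9.95 CPM, and well above the postmitotic ones, 232 ± 52.9 CPM (SD, n = 2 each). The log2 fold change of 1.25 ± 0.70 did not pass the test by edgeR (adjusted p = 0.215) or by DESeq2 (1.40, adjusted p = 0.710). It passed in 3 of 13 alternative analyses, among them the fit with only these 2 classes, which also changed the genes tested and the scaling (1.39, edgeR adjusted p = 0.0106). Sp9 had 269 and 237 CPM against 152 and 189 CPM, a log2 fold change of 0.18 ± 0.50 (edgeR adjusted p = 0.846).

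Of the chromosome 6 genes, Dlx5 had 72.9 and 90.8 CPM in dividing cells against 107 and 103 CPM in postmitotic cells, with a log2 fold change of -0.64 ± 0.31 (edgeR adjusted p = 0.152). Its neighbour Dlx6 had values in the opposite order, 123 and 106 CPM against 46.4 and 70.7 CPM, with 0.56 ± 0.37 (edgeR adjusted p = 0.299). Dlx6os1, transcribed across Dlx6, had 2143 and 2446 CPM against 1199.9 and 960.4 CPM, with 0.73 ± 1.12 (edgeR adjusted p = 0.690). None of the 3 passed the test. Within replicate 4 alone the log2 ratio of CPM was -0.18 for Dlx5 and 1.35 for Dlx6os1, and within replicate 2 it was 1.41 for Dlx6. Against CGE or LGE interneuron-like cells alone, the fold change of Dlx6os1 was -0.24 (edgeR adjusted p = 0.972), and that of Dlx5 passed at -1.14 (edgeR adjusted p = 0.0244).

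Of the GABA genes, Gad1 had 72.9 CPM in dividing cells of replicate 2 (95% exact Poisson interval 38.8 to 125, from 13 UMIs) and 132 CPM in those of replicate 4 (108 to 160.3, from 105 UMIs). Postmitotic cells had 372 CPM (343 to 402) and 359 CPM (337 to 382). Intervals here and below cover counting error only. The postmitotic values lay close together, 365 ± 8.90 CPM (SD, n = 2), and above both dividing ones, 103 ± 42.0 CPM. The log2 fold change was -2.03 ± 0.69 (edgeR adjusted p = 0.0442). This call was lost in 4 of 13 alternative analyses, among them the DESeq2 Wald test (-2.04, adjusted p = 0.631) and RLE size factors (-1.91, edgeR adjusted p = 0.0560), and held against interneuron-like cells alone (-2.06, edgeR adjusted p = 0.0368).

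Gad2 differed less, with 623 and 600.2 CPM in dividing cells against 754 and 994 CPM in postmitotic cells, and did not pass the test at -0.89 ± 0.86 (edgeR adjusted p = 0.496). Slc32a1 had 44.9 and 35.3 CPM against 100.4 and 92.1 CPM, on 8 and 28 UMIs in the dividing cells. Its log2 fold change of -1.68 ± 0.59 missed the threshold (edgeR adjusted p = 0.0561), and passed it in 7 of 13 alternative analyses, among them the fit with the library as a replicate block (-1.81, edgeR adjusted p = 0.0434). With classes made from 1 part of each cell's UMIs and the test run on the other part, 4 of the 9 genes were called, Slc32a1 (-2.01, edgeR adjusted p = 0.00781) and Dlx1 (1.39, edgeR adjusted p = 0.00295) besides Dlx2 and Gad1. Over all alternatives the number called ran from 0 to 6.

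**Figure D2:**
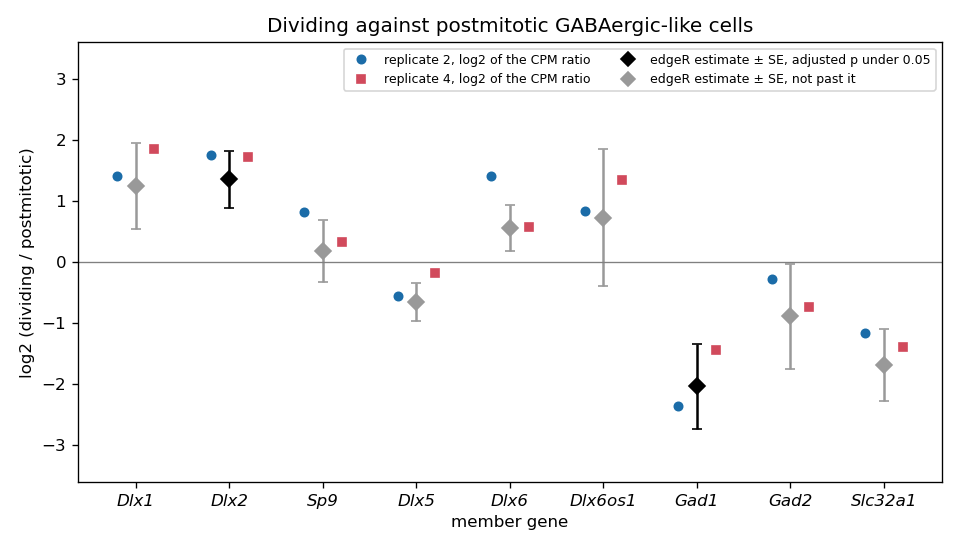
Log2 ratio of dividing to postmitotic GABAergic-like cells for each gene, as the edgeR estimate with its standard error (diamonds, black where the adjusted p is under 0.05) beside the log2 ratio of CPM within replicate 2 (circles) and replicate 4 (squares). Dlx2 (1.36) and Gad1 (-2.03) are the black ones. For all 9 genes both libraries lie on the same side of 0, as they do for 67.4% of all genes tested.

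Because members of a pair share cells and depth, the share of 1 gene in the UMIs of its pair was compared across classes. It reads unequal change only, and not levels of the genes against each other. Gad1 made up 10.5% of the Gad1 and Gad2 UMIs in dividing cells of replicate 2 (95% exact binomial interval 5.70 to 17.3%) and 18.1% in those of replicate 4 (15.03 to 21.4%). In postmitotic cells its share was 33.0% (30.9 to 35.2%) and 26.5% (25.1 to 28.0%). Within each library the intervals of the 2 classes did not overlap. Dlx5 made up 37.1% (21.5 to 55.1%) and 46.2% (38.2 to 54.3%) of the Dlx5 and Dlx6 UMIs in dividing cells, against 69.8% (63.9 to 75.3%) and 59.3% (54.7 to 63.8%) in postmitotic cells, again with no overlap within a library. In replicate 4, the Dlx5 shares of 3 postmitotic sub-classes overlapped that of dividing cells: CGE or LGE interneuron-like cells with 58.5% (48.5 to 68.0%), striatal projection neuron-like cells with 52.8% (40.7 to 64.7%) and the Six3-led cluster with 51.8% (40.7 to 62.7%). Dlx1 made up 65.8% and 70.5% of the Dlx1 and Dlx2 UMIs in dividing cells and 71.1% and 68.7% in postmitotic cells, which overlapped. These shares are given as a description. No test was run on them across libraries, since with 2 libraries a class an exact two-sided permutation test cannot give a p below 0.333.

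**Figure D3:**
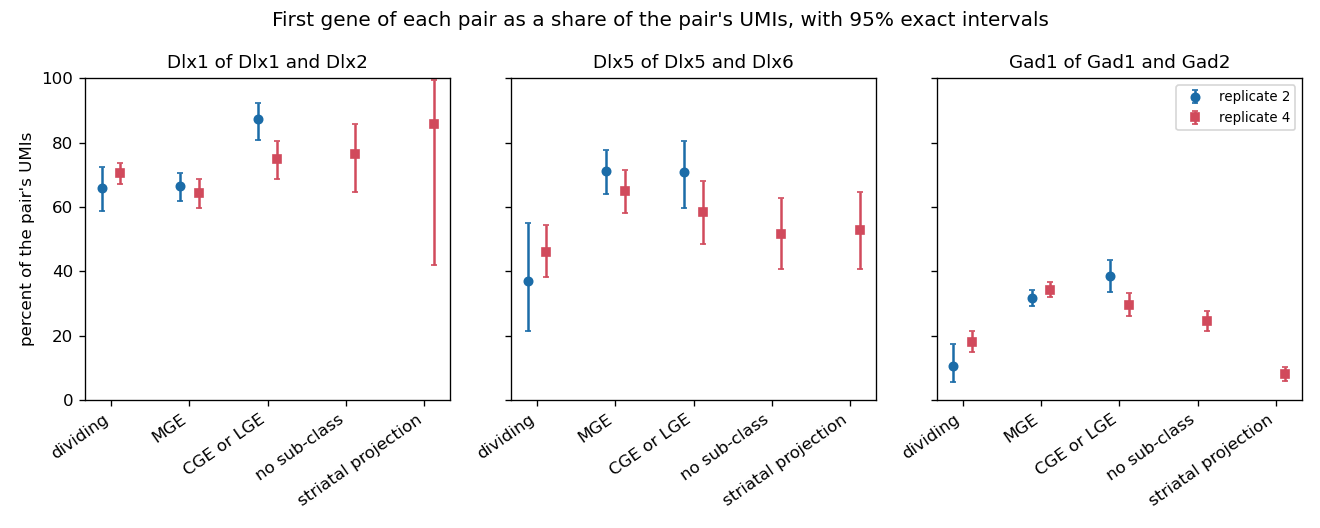
Share of Dlx1, Dlx5 and Gad1 in the UMIs of their pair (percent) in the dividing cells and the postmitotic sub-classes, by library (circles, replicate 2; squares, replicate 4), with 95% exact binomial intervals. The Gad1 share is 10.5% and 18.1% in dividing cells, 31.7% and 34.3% in MGE interneuron-like cells and 7.95% in the striatal projection neuron-like cells of replicate 4.

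The share of cells with a UMI was compared after each cell had been thinned to 5000 UMIs, which left out 1 dividing cell, in replicate 4, and 2 and 13 postmitotic cells. Gad1 was then detected in 28.6% of 7 and 39.0% of 41 dividing cells of replicates 2 and 4, and in 74.4% of 78 and 76.8% of 181 postmitotic cells (42.9, 54.8, 91.2 and 88.1% before thinning). Slc32a1 was detected in 14.3% and 14.6% of dividing cells and 39.7% and 38.7% of postmitotic cells (3 of 7, 16 of 42, 60 of 80 and 127 of 194 cells before thinning). For Dlx2 the order was the opposite, 57.1% and 68.3% of dividing cells and 37.2% and 33.7% of postmitotic cells (100, 88.1, 81.2 and 55.7% before thinning). Dlx1 was detected in 85.7% and 85.4% against 60.3% and 52.5% (100, 95.2, 88.8 and 67.0% before thinning). The postmitotic sub-classes differed in this. Dlx1 was detected in 84.2% and 90.6% of thinned CGE or LGE interneuron-like cells, and in 52.6% and 60.2% of MGE interneuron-like cells. Dlx2 was detected in 5.26% and 56.25% of thinned CGE or LGE interneuron-like cells. For comparison, excitatory neuron-like cells outside the cluster led by Tafa1 and Tafa2 had a median of 33730 and 25006 UMIs. No single gene of the 9 was seen there in more than 1.43% of thinned or 2.27% of unthinned cells. None of the 9 was seen in 99.1% and 97.0% of these thinned cells of replicates 2 and 4 (96.1% and 94.2% before thinning). The source of the members' UMIs in these cells was not tested.

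Dlx6os1, whose level did not pass the test, was detected in 71.4% (95% exact binomial interval 29.0 to 96.3%) and 73.2% (57.1 to 85.8%) of thinned dividing cells against 91.0% (82.4 to 96.3%) and 85.1% (79.0 to 89.9%) of postmitotic ones (71.4, 76.2, 93.8 and 94.3% before thinning). The intervals of the classes overlapped in both libraries after thinning.

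Cells with a Dlx UMI (Dlx1, Dlx2, Dlx5 or Dlx6) but no Gad1 or Gad2 UMI were 2 of 7 and 7 of 41 thinned dividing cells, against 1 of 78 and 0 of 181 thinned postmitotic cells (1 of 7, 5 of 42, 1 of 80 and 0 of 194 before thinning). Cells with a Gad UMI but no Dlx UMI were 0 of 7 and 2 of 41 thinned dividing cells, against 7 of 78 and 33 of 181 postmitotic cells. In replicate 2 the 95% exact binomial intervals of the classes overlapped for both patterns (3.67 to 71.0% of dividing against 0.032 to 6.94% of postmitotic cells for the first, 0 to 41.0% against 3.68 to 17.6% for the second). In replicate 4 they were 7.15 to 32.1% against 0 to 2.02% for the first, and 0.60 to 16.5% against 12.9 to 24.6% for the second. These cells were not tested across libraries. A missing UMI at this depth does not show a missing transcript. In unthinned replicate 4 cells, a Gad UMI without a Dlx UMI occurred in 7 of 34 striatal projection neuron-like cells, 5 of 35 cells of the Six3-led cluster and 2 of 91 MGE interneuron-like cells.

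Within the postmitotic cells, MGE interneuron-like and CGE or LGE interneuron-like cells were compared (Lhx6 at 270.2 and 244 CPM in the former and 0 UMIs in the latter). None of the 9 genes passed the test by edgeR or by DESeq2. Over 12788 genes, 1.17% were called higher in MGE interneuron-like cells and 0.798% lower, and 1538 genes had an unadjusted p under 0.05. With RLE size factors the split was 117 higher and 124 lower, against 149 and 102. Dlx6os1 had 951 and 979.6 CPM in MGE interneuron-like cells against 2013 and 2607 CPM in CGE or LGE interneuron-like cells, and Dlx1 had 232 and 242 CPM against 391 and 443 CPM. Neither difference passed, at -1.15 ± 1.12 and -0.71 ± 0.68 (edgeR adjusted p = 0.779 for both). Sp9 had the opposite order, 165 and 237 CPM against 98.6 and 112 CPM, with 1.04 ± 0.54 (edgeR adjusted p = 0.482). Dlx5 (93.5 and 110.0 against 167 and 161 CPM) and Dlx6 (37.9 and 59.1 against 68.7 and 115 CPM) had no overlap either, as was so for 37.5% of all genes (edgeR adjusted p = 0.441 for both). Slc32a1 had 103 and 105 CPM against 95.6 and 70.3 CPM, also without overlap (edgeR adjusted p = 0.820). The values of Dlx2, Gad1 and Gad2 overlapped between these classes. The CGE or LGE interneuron-like cells themselves differed between the libraries, with Nr2f2 at 125 and 779 CPM and Sp8 at 224 and 128 CPM, and the part of this in the members' spread was not tested.

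**Figure D4:**
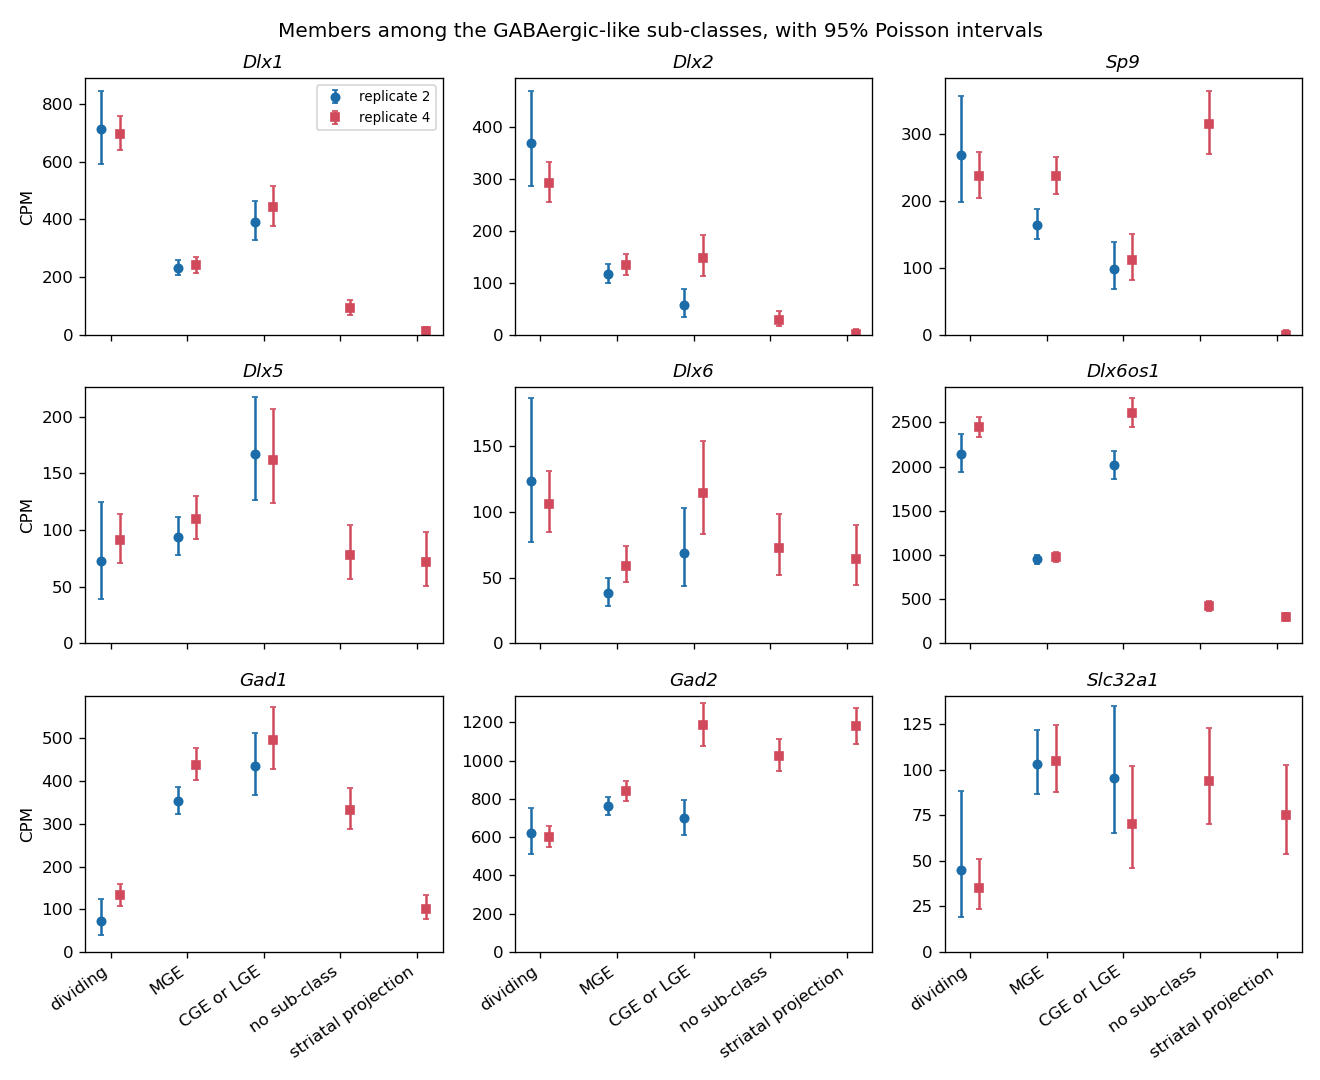
Level of each gene (CPM, linear axis from 0) in the dividing cells and the postmitotic sub-classes, with a point per library (circles, replicate 2; squares, replicate 4) and 95% exact Poisson intervals. The last 2 sub-classes are shown for replicate 4 only, where striatal projection neuron-like cells have 11.3 CPM of Dlx1 and 0 UMIs of Sp9 beside 1179 CPM of Gad2.

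Striatal projection neuron-like cells (34 cells of replicate 4, Isl1 at 671 CPM) had almost none of the transcription factor genes of chromosome 2. Only 1 such cell was found in replicate 2, so what follows is 1 library with no test. Dlx1 had 6 UMIs there, or 11.3 CPM (95% exact Poisson interval 4.15 to 24.6), against 242 CPM in MGE interneuron-like cells of the same library. Dlx2 had 1 UMI, and Sp9 had 0 UMIs in 34 cells, for which a limit of 3 counts allows up to 5.66 CPM (exact Poisson upper bound 6.96 CPM). Dlx5 had 71.7 CPM there and Dlx6 64.1 CPM, against 110.0 and 59.1 CPM in the MGE interneuron-like cells. Dlx6os1 had 298 CPM against 979.6 CPM in MGE interneuron-like cells. Gad2 had 1179 CPM, while Gad1 had 102 CPM (76.5 to 133) against 438 CPM in MGE interneuron-like cells, and Gad1 made up 7.95% of the Gad UMIs (6.03 to 10.2%). Slc32a1 had 75.4 CPM. The 35 cells of the Six3-led cluster in the same library had 92.2 CPM of Dlx1, 28.4 CPM of Dlx2 and 316 CPM of Sp9, the last above its MGE interneuron-like value of 237 CPM, with 333 CPM of Gad1 and 1027 CPM of Gad2. That cluster also carried striatal projection neuron markers, with 13 of 15 detected at 11436 CPM summed. The striatal projection neuron-like cells had 13 of 15 at 27416 CPM.

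The genes around GABA use formed a list of 15 enzymes and transporters, of which 13 were tested (2 were not). Dividing against postmitotic cells, none of the 13 was called higher and 1 lower (10.9% and 16.7% of all genes), with a median log2 fold change of -0.13 beside -0.23 for all genes. The 1 was Slc12a5, the chloride exporter KCC2, with 0 and 2.52 CPM in dividing cells against 18.2 and 15.5 CPM in postmitotic cells (edgeR adjusted p = 0.0109). A limit of 3 counts stands for 16.8 and 3.78 CPM in the dividing cells of replicates 2 and 4. The Slc12a5 values there lie below it, so the size is imprecise. Against excitatory neuron-like cells, 3 of 13 were called higher and 1 lower (6.44% and 9.9% of all genes). Abat, the GABA transaminase that degrades GABA, had 69.9 and 60.0 CPM in postmitotic GABAergic-like cells against 7.90 and 10.4 CPM, with 2.75 ± 0.22 (edgeR adjusted p = 2.59e-06), and Slc12a5 was higher by 2.06 ± 0.43. Aldh9a1, an aldehyde dehydrogenase, was lower at -1.93 ± 0.29. Against RGC-like cells, 3 of 13 were called higher in dividing GABAergic-like cells and 1 lower (6.96% and 11.7% of all genes). Among the higher ones were Abat (50.5 and 63.0 against 6.26 and 5.92 CPM) and the glutamine transporter Slc38a2, and the lower one was Slc38a3. In the dividing cells Slc38a3 also lay below the limit of 3 counts in both libraries. Between the interneuron-like classes 1 of 13 was called, Abat, with 46.8 and 46.9 CPM in MGE interneuron-like cells against 167 and 85.9 CPM (-1.30 ± 0.29, edgeR adjusted p = 0.0278).

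A second list held 14 genes around the Dlx factors, their family, upstream regulators and reported targets, of which 11 were tested (Gsx1, Dlx3 and Dlx4 were not). Dividing against postmitotic cells, 4 of 11 were called higher and 4 lower, beside 10.9% and 16.7% of all genes, with a median of -0.44. The higher ones included Gsx2, Pak3 and Vax1, and the lower ones Nrp2, Npas1 and Mef2c. Gsx2, a homeobox gene of ventral progenitors, had 28.1 and 42.9 CPM against 1.17 and 2.58 CPM (3.88 ± 0.78, edgeR adjusted p = 0.00472). Mef2c, a transcription factor of maturing neurons, had 78.6 and 89.5 CPM against 974 and 637 CPM (-3.57 ± 0.37, edgeR adjusted p = 1.08e-05). Nrp2, a semaphorin receptor of migrating interneurons, had 5.61 and 0 CPM against 75.8 and 104 CPM, and Npas1 had 5.61 and 2.52 CPM against 69.3 and 24.7 CPM. Both genes lay below the limit of 3 counts in the dividing cells of each library, so the sizes are imprecise. Against excitatory neuron-like cells 8 of 11 were called higher in postmitotic GABAergic-like cells and none lower, beside 6.44% and 9.9% of all genes. Npas1 (6.75 ± 0.59) and Dlx1as (6.63 ± 0.52) were among them. Against RGC-like cells 8 of 11 were called higher in dividing GABAergic-like cells and none lower, beside 6.96% and 11.7% of all genes. Dlx1as, the antisense RNA of Dlx1, had 297 and 348 CPM there against 3.01 and 3.45 CPM (6.50 ± 0.54, edgeR adjusted p = 1.22e-05). None of the 11 was called between MGE and CGE or LGE interneuron-like cells by edgeR, where 1538 of all genes had an unadjusted p under 0.05.

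The genes whose pattern over 22 sums of library and class (12 classes) was most like each of the 9 were found by Pearson's r of log2(CPM + 10). Points of 1 library share depth and processing, so r is given as a description. Dlx1 and Dlx2 were each other's nearest (r = 0.975), as were Dlx6 and Dlx6os1 (r = 0.970), and Sp9 was nearest to Dlx1 (r = 0.939). Slc32a1 (r = 0.988), Gad1 (r = 0.985), Dlx5 (r = 0.985) and Gad2 (r = 0.975) had the same nearest gene, the long non-coding RNA Gm14204. It had 56.1 and 125 CPM in dividing and 243 and 221 CPM in postmitotic GABAergic-like cells. Gm14204 overlaps 3464 bases (40.8%) of the Slc32a1 gene on the opposite strand, and Dlx1as overlaps 3344 bases (57.0%) of Dlx1, so whether reads of these pairs were told apart depends on strand in the counting, whose setting is not given in the sources used here. Dlx1 with Dlx2 and Dlx6 with Dlx6os1 are neighbours in the genome, whereas Gm14204 lies on another chromosome than Dlx5.

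Outside the GABAergic-like cells, many of the few UMIs of the 9 genes were held by a small number of cells. In RGC-like cells of replicate 4, 259 of 313 UMIs of the 9 genes together were in 4 of 428 cells, each with at least 10 such UMIs. In IPC-like cells, 141 of 166 were in 8 of 232 cells, and in the cluster led by Tafa1 and Tafa2, 493 of 514 were in 10 of 86 cells. In the other excitatory neuron-like cells, 40 of 71 UMIs were in 1 of 543 cells in replicate 2, and 90 of 138 in 4 of 794 cells in replicate 4. In replicate 2 no RGC-like or IPC-like cell had 10 such UMIs, with 29 UMIs over 243 RGC-like cells and 8 over 143 IPC-like cells. Whether these cells were doublets that the filter missed was not tested.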

How the data were processed

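Both libraries had been prepared with a 10x Genomics 3′ kit, and the authors processed the reads with Cell Ranger 7.0.0 against mm10. They deposited unnormalized UMI counts for each gene and barcode. Barcodes under 1000 genes or over 10% mitochondrial UMIs were left out (501 and 618), and 14 and 15 doublets called by Scrublet were removed. Cells were clustered with scanpy 1.11.5 (2000 variable genes, 30 components, Leiden resolution 1), with the 9 genes and the pathway lists left out, and clusters were named where at least 3 genes of a marker list were raised. The classes are rebuilt and may differ from the study's. The members and lists were chosen with earlier results of these data known, and the sub-clustering settings after clusterings had been seen.

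UMIs were summed per library and class and tested in R 4.3.3 with edgeR 4.0.16 (quasi-likelihood test, TMM factors, filterByExpr, all classes of at least 5 cells per library in 1 fit, Benjamini-Hochberg adjustment, threshold 0.05), with DESeq2 1.42.0 as an alternative. The fits were also run on simulated data, and the outcome is not reported here. Standard errors were the size of the log2 fold change over the square root of the F statistic. The 9 genes were named whatever their result. From each pathway list up to 4 called genes per comparison were named by size of change with the same sign in both libraries. Some genes of these lists enter the counts but are not reported here by name. Counts, markers and the genes most like a member were also named, and coordinates, strands and promoters were read from RefSeq tables. Class sums of 1 library come from the same tissue, so the library pairs them: the deviations of 36 pairs of classes had correlations of 0.057 to 0.46 (median 0.17, 23 over 0.1). The 2 planned comparisons with striatal projection neuron-like cells were not tested, because replicate 2 held 1 such cell.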

Additional observations from a re-analysis of the deposited data

Results flagged for a closer look

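The barcodes left out of every comparison for few genes or a high mitochondrial share, or as doublets (501 and 14 in replicate 2, 618 and 15 in replicate 4), also held UMIs of the 9 genes, and their level exceeded the counting interval of excitatory neuron-like cells outside the cluster led by Tafa1 and Tafa2 for all 18 values of gene and library. Over those barcodes Dlx1 had 18.4 and 32.3 CPM in replicates 2 and 4, Dlx2 6.51 and 13.2 CPM, and Sp9 12.3 and 16.5 CPM. Dlx5 had 7.66 and 12.1 CPM, Dlx6 2.68 and 9.18 CPM, and Dlx6os1 57.1 and 105 CPM. Gad1 had 20.3 and 21.7 CPM, Gad2 30.7 and 54.3 CPM, and Slc32a1 9.20 and 11.4 CPM. All lie below the levels in dividing and postmitotic GABAergic-like cells. These barcodes were given no class and can hold cells of any kind, GABAergic ones included. An excess over cells named as excitatory neuron-like therefore says little by itself. Their level was not set against that of all kept cells.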

How the results depend on the processing

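The excess of all 9 genes over excitatory neuron-like and RGC-like cells kept its direction and its call in each alternative run. Its size moved, over 6.75 (Slc32a1) to 10.23 (Gad1) against excitatory neuron-like cells. In single libraries 9 of 17 values in each of these comparisons lay further from the fitted value than the spread between libraries, up to 11.53 (Sp9, excitatory) and 14.12 (Dlx6os1, RGC-like) without replicate 4. For dividing against postmitotic cells the counts moved. Where 2 of the 9 were called as reported, 0 were called by the DESeq2 Wald test and with dividing cells called per cell, 1 with RLE size factors, with Leiden resolution 0.5 and with interneuron-like cells alone, 3 with doublets kept, with Leiden resolution 2 and with the 9 genes and pathway lists kept for clustering (Slc32a1 added in each), 4 with only the classes compared and with classes from 1 part of the UMIs, and 6 with every gene of at least 1 count. Dlx2 lost its call by DESeq2, per cell, and against interneuron-like or CGE or LGE interneuron-like cells alone, and Gad1 by DESeq2, RLE size factors, Leiden resolution 0.5 and per cell. All genes called fell from 3628 to 2325 with only the classes compared and to 2113 against CGE or LGE interneuron-like cells. The alternatives with only interneuron-like cells, only CGE or LGE interneuron-like cells or no Tafa1 and Tafa2 cluster were chosen after seeing the data. Dlx6os1 reversed to -0.24 against CGE or LGE interneuron-like cells. The causes of these shifts were not tested.

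For dividing against RGC-like cells, 1495 genes were called with classes from 1 part of the UMIs, against 2453. For MGE against CGE or LGE interneuron-like cells, 394 genes were called by DESeq2, 659 with every gene of at least 1 count and 104 with only the classes compared, against 251, and 2 of the 9 genes in place of 0 with every gene of at least 1 count (Dlx6os1 and Sp9) and with classes from 1 part of the UMIs (Dlx2 and Sp9). Uncalled differences that changed sign there were Dlx2 with doublets kept (-0.0084) and with Leiden resolution 2 (-0.17), and Dlx1 (0.017), Dlx5 (0.40), Gad1 (0.48) and Gad2 (0.54) with classes from 1 part of the UMIs.

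With the library as a replicate block, dividing against postmitotic cells called 3 of the 9 genes, Slc32a1 being added at -1.81, and Gad2 between the interneuron-like classes changed sign to 0.028 without a call. The block changed no other call of the 9 genes. Within single libraries, which give values with no test, dividing against postmitotic differences kept their sign but 10 of 18 lay further from the fitted value than the spread between libraries. Without replicate 2 these were Dlx1 (1.85), Dlx2 (1.73), Dlx5 (-0.18), Dlx6os1 (1.35) and Slc32a1 (-1.38), and without replicate 4 Dlx2 (1.76), Dlx6 (1.41), Sp9 (0.82), Gad2 (-0.28) and Slc32a1 (-1.16). Between the interneuron-like classes Dlx2 was -0.14 without replicate 2 and 1.05 without replicate 4, and Gad2 -0.50 and 0.12.

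A limit of 5% mitochondrial UMIs was not run for the dividing class, which then had 4 cells in replicate 2 where 5 were required. Values without replicate 4 could not be had for Slc32a1 against excitatory neuron-like cells or Gad1 against RGC-like cells, with 0 UMIs in replicate 2. All alternatives of both comparisons with striatal projection neuron-like cells were likewise not run. The 7 dividing cells of replicate 2 limit the precision of each comparison of that class.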
